A study of Mus musculus with 9 samples.

Results

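The Hox genes of the HoxA, HoxB, HoxC and HoxD clusters were followed in peak lists of PBRM1 and BRG1 from mouse oviductal muscle cells. They were taken as the protein-coding genes of GENCODE M21 (mm10) whose symbol is *Hoxa*, *Hoxb*, *Hoxc* or *Hoxd* with a number, which gave 39 of 21938 protein-coding genes. The rule uses gene names and no measured value. The cells were wild-type primary oviductal muscle cells from mice 8 to 12 weeks old on day 2 of pregnancy after mating with a stud male. Chromatin immunocleavage sequencing (ChIC-seq), in which an antibody brings a nuclease to its target and the cut DNA is sequenced, was carried out with antibodies against PBRM1 (BAF180, found in the PBAF class of SWI/SNF chromatin remodelers) and BRG1 (an ATPase of SWI/SNF complexes). There were 3 libraries per antibody, and 3 IgG libraries of the same cells were not analysed here. All groups shared genotype, day and mating. The labels describe enzymatic digestion, passage through a filter and a few hours in culture, and no sorting step. They do not say whether replicates came from separate animals or pools, so a p-value below measures only the spread between these libraries.

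Hox genes encode homeodomain transcription factors that give positions along the body axis their identity. Within each cluster the genes lie in order from paralogue 1 at the 3′ end to paralogue 13 at the 5′ end, and their expression domains follow that order. In the female reproductive tract, *Hoxa9* is known as a gene of the oviduct, *Hoxa10* of the uterus, *Hoxa11* of the lower uterus and cervix and *Hoxa13* of the upper vagina. In cells that do not use them, Hox genes are classically held silent by Polycomb complexes, against which trithorax proteins and SWI/SNF remodelers act.

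Each library had its own peak list, with 31970 to 39467 peaks from 18126049 to 23992352 fragments for PBRM1 and 14284532 to 15897724 for BRG1, and each antibody had a list called on its pooled replicates (61910852 and 45216486 fragments). The signal of a peak is the pileup, the number of fragments over its summit, divided by the library's fragments and given per 1000000 of them (ppm). A gene was counted as called in a list when a summit lay within 2 kb of any of its annotated starts. A gene that was not called had no peak past the q cutoff of 0.05, which is not a measurement of 0. The lowest called peaks had 0.333 to 0.42 ppm in the replicate lists. Promoters of smooth muscle markers were called in all 6 lists for 6 of 10 genes, among them *Acta2* and *Tagln*, whereas *Myh11* was called in 1 list and *Cnn1* in none. Of all protein-coding genes, 41.4% were called in all 6 lists and 34.9% in none. No oviduct epithelial marker of 8 was called in all 6 lists and 5 were called in none, while none of 4 immune markers was called in any. Of 4 endothelial markers, *Tek* was called in all 6 lists and *Kdr* in 5. At least 1 pooled list called 7 of the 8 epithelial, 9 of the 10 smooth muscle and 3 of the 4 endothelial markers. It called 0 of the 4 immune markers and 69.2% of all genes. A promoter peak does not measure expression or the number of such cells, and the part of other cells in the Hox peaks was not tested.

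Hox promoters were called less often than other promoters in every replicate library. In the PBRM1 lists, 13, 9 and 10 of the 39 genes were called in replicates 1, 2 and 3, beside 53.6%, 50.8% and 51.8% of all protein-coding genes. In the BRG1 lists, 12, 13 and 14 genes were called, beside 57.7%, 54.7% and 56.9%. The Hox shares were thus 23.1% to 35.9%, below the share over all genes in each of the 6 lists. Only *Hoxa3* and *Hoxc13* were called in all 6 lists (5.13% of the 39, beside 41.4% of all genes). The same 2 genes made up the Hox genes called in all 3 PBRM1 lists (43.8% of all genes), and 7 were called in all 3 BRG1 lists (17.9%, beside 49.6% of all genes), namely *Hoxa3*, *Hoxa10*, *Hoxb7*, *Hoxc5*, *Hoxc13*, *Hoxd1* and *Hoxd9*. No Hox gene was called in all 3 lists of 1 antibody and none of the other, beside 0.748% of all genes for BRG1 and 0.105% for PBRM1.

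**Figure D1:**
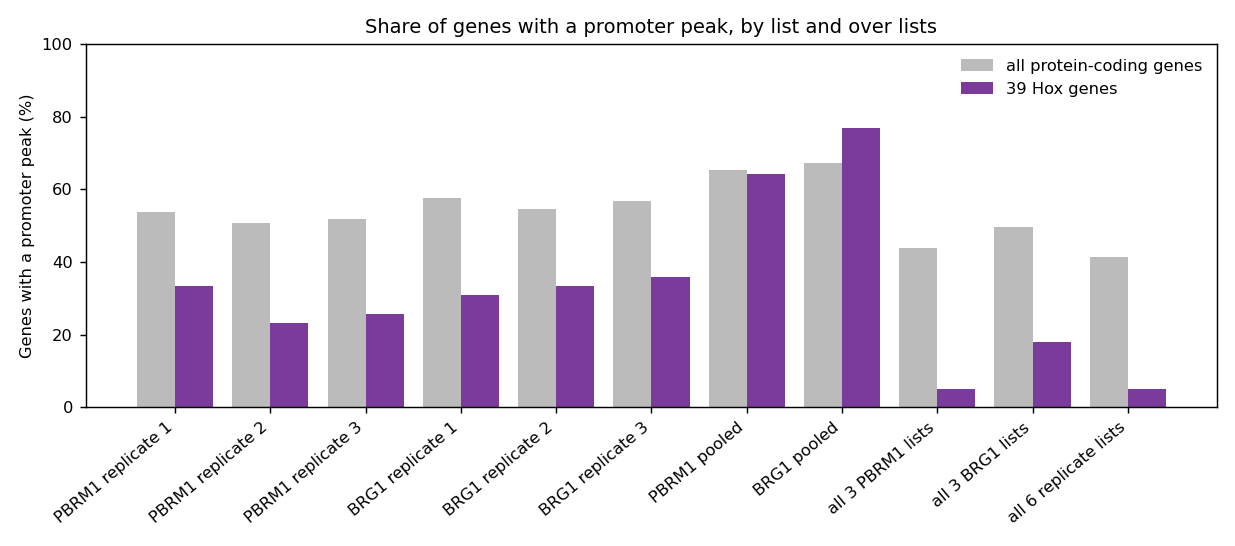
Share of genes with a promoter peak (%), for all protein-coding genes (grey) and the 39 Hox genes (purple), in each list and over several lists. The Hox bars are lower in all 6 replicate lists, at 23.1% to 35.9%, and only in the pooled BRG1 list, at 76.9%, is the Hox bar the higher of the pair.

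Hox genes that were called were called in fewer lists than other genes. In 24 of 39 Hox genes (61.5%, beside 65.1% of all genes) a peak was called in at least 1 of the 6 lists, and 15 genes (38.5%, beside 34.9%) were called in none. Of the 24 genes, 19 were called in at least 2 lists (79.2%, beside 92.6% of all genes called at least once), and 5 in at least 5 lists (20.8%, beside 74.6%). In the pooled lists 25 Hox genes were called for PBRM1 (64.1%, beside 65.4%) and 30 for BRG1 (76.9%, beside 67.3%). Both pooled lists called 22 (56.4%, beside 63.5%) and at least 1 of them 33 (84.6%, beside 69.2%). Of the 30 genes called in the pooled BRG1 list, 9 had no peak in any of its 3 replicate lists (30%, beside 7.2% of all genes called there). For PBRM1 it was 5 of 25 (20%, beside 9.11%). Pooled calls have no replicate check.

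**Figure D2:**
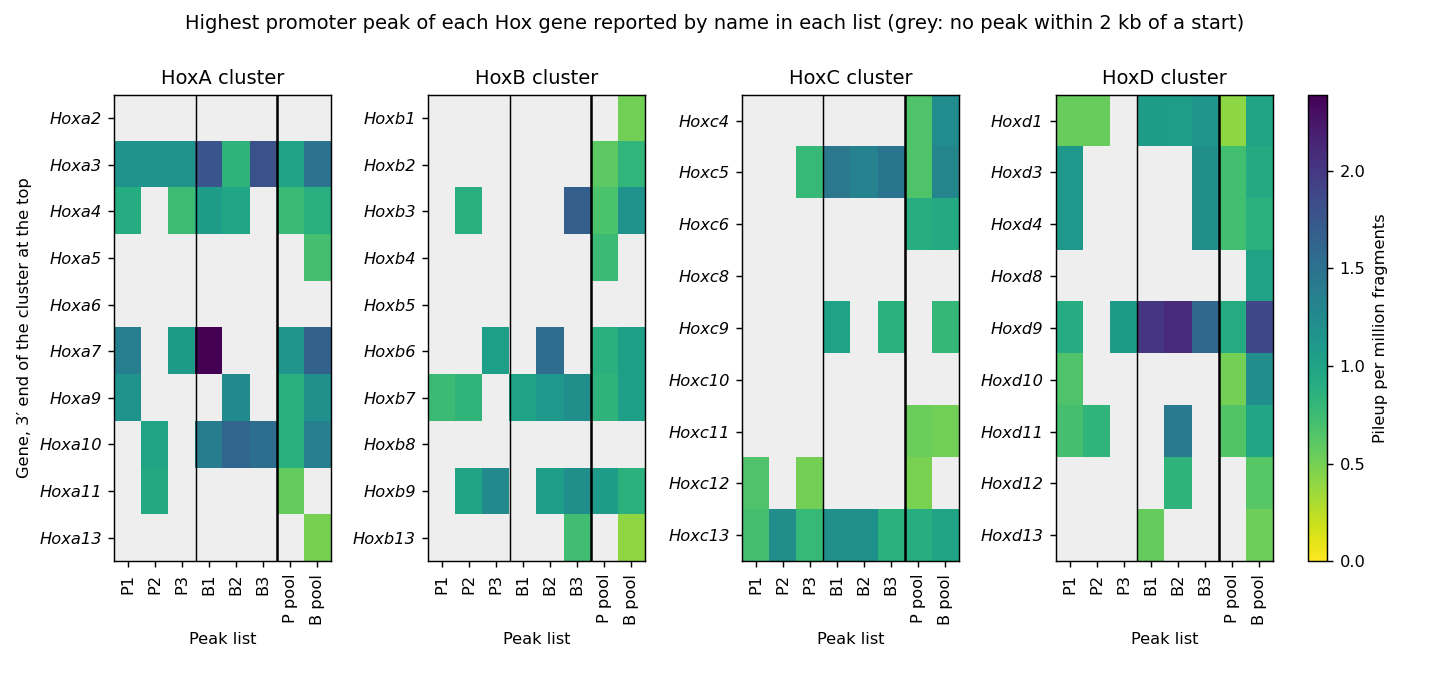
Highest promoter peak of each Hox gene reported by name, in ppm (colour), with genes in rows from the 3′ to the 5′ end and lists in columns (P and B, PBRM1 and BRG1 replicates 1 to 3, then the pooled lists). Grey means no peak within 2 kb of a start, and rows filled across all 6 replicate columns are those of *Hoxa3* and *Hoxc13* only.

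Among the genes of the female tract axis, *Hoxa10* carried the most recurrent signal. *Hoxa10* was called at 1.38, 1.61 and 1.53 ppm in BRG1 replicates 1, 2 and 3 and at 0.993 in PBRM1 replicate 2, with no peak in the other PBRM1 lists. The BRG1 values were all above the single PBRM1 value. The peaks lay at 2 separate groups of starts, both of them in BRG1 replicates 1 and 2 and only the upstream group in BRG1 replicate 3 and PBRM1 replicate 2. *Hoxa9*, the oviduct paralogue, was called in PBRM1 replicate 1 at 1.16 and in BRG1 replicate 2 at 1.26, and in the pooled lists at 0.872 for PBRM1 and 1.19 for BRG1. *Hoxa11* was called at 0.938 in PBRM1 replicate 2 alone and at 0.565 in the pooled PBRM1 list. *Hoxa13* had no peak in any replicate list and 0.486 in the pooled BRG1 list, 743 bp inside the gene. The order *Hoxa10*, *Hoxa9*, *Hoxa11*, *Hoxa13* held for the mean over 6 libraries with uncalled values at 0 (0.92, 0.404, 0.156 and 0). *Hoxa9* was called in only 2 replicate lists and *Hoxa11* in 1, so their places in this order rest on few calls. Differences between these genes were not tested.

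The promoters of these 4 genes are shown to compare their CpG content and to place the peaks. The sequences are from RefSeq on GRCm38.p6, with 250 bases before and 50 after the start, on the minus strand, and capitals mark each CpG. The pooled peak summit lay 806 bp downstream of the start for *Hoxa9*, at an internal start of the gene, 73 bp upstream for *Hoxa10*, 329 bp downstream for *Hoxa11* and 743 bp downstream for *Hoxa13*. The windows hold 4, 21, 15 and 45 CpG, with the fewest for *Hoxa9*, called in 2 replicate lists, and the most for *Hoxa13*, called in none. Only the *Hoxa10* summit lay inside its window, so the counts of the other genes do not describe the called sites. The *Hoxa10* window is at the downstream group of starts, where only BRG1 replicates 1 and 2 had a replicate peak. The upstream group, called in 4 replicate lists, is not shown. A window of the same size at the annotated gene start there holds 12 CpG.
Hoxa9 (chr6:52227321-52227620): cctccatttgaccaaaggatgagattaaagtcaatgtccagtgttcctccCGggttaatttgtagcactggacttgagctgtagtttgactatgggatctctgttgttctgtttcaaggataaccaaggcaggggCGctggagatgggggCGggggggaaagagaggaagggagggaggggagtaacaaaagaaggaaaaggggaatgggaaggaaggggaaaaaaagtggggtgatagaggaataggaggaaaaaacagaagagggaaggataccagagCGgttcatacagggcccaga
Hoxa10 (chr6:52234890-52235189): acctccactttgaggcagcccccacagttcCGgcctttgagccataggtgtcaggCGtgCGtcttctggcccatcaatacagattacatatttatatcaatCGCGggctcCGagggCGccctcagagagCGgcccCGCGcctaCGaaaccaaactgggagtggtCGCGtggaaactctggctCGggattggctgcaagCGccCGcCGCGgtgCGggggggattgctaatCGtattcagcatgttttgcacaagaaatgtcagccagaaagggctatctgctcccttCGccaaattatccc
Hoxa11 (chr6:52245761-52246060): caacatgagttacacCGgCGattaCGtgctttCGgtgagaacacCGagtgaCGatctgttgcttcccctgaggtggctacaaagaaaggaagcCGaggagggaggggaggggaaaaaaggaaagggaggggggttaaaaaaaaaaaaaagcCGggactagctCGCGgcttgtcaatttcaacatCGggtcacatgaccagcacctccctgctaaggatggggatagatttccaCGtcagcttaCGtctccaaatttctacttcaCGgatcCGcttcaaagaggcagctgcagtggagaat
Hoxa13 (chr6:52260831-52261130): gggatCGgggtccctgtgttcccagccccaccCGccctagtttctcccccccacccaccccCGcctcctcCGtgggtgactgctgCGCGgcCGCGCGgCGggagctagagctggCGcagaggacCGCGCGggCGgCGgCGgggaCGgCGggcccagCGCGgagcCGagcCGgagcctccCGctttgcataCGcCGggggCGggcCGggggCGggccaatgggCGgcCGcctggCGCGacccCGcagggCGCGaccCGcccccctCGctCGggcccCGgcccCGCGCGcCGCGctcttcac

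In each cluster, the 2 genes with the highest mean over the 6 libraries were *Hoxa3* and *Hoxa10*, *Hoxb7* and *Hoxb9*, *Hoxc13* and *Hoxc5*, and *Hoxd9* and *Hoxd1*. *Hoxd9*, a 5′ gene known from limb and posterior axis patterning, reached 2.01, 2.1 and 1.6 ppm in the BRG1 replicates and 0.909 and 1.08 in PBRM1 replicates 1 and 3, with no peak in PBRM1 replicate 2. The summit of the highest peak lay from 1 to 66 bp downstream of the annotated start in these 5 lists, and BRG1 replicate 1 had a second peak 917 bp downstream, at 1.13. *Hoxd1*, at the 3′ end of the same cluster, had 1.07, 1.05 and 1.13 in the BRG1 lists and 0.556 and 0.552 in PBRM1 replicates 1 and 2. For both genes the BRG1 values lay above every PBRM1 value.

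*Hoxb7* was called at 1.01, 1.12 and 1.2 in the BRG1 replicates and at 0.758 and 0.828 in PBRM1 replicates 1 and 2, but not at the same place. The BRG1 summits at these levels lay 213 to 444 bp downstream of the start, and the PBRM1 summits 198 and 233 bp upstream of it, where BRG1 replicate 3 had a second peak at 1.06. *Hoxb9* had 0.993 and 1.25 in PBRM1 replicates 2 and 3 and 1.05 and 1.2 in BRG1 replicates 2 and 3, and no peak in replicate 1 of either antibody. *Hoxc5* had 1.45, 1.33 and 1.46 for BRG1 and 0.792 in PBRM1 replicate 3, all within 641 bp of a start of the gene and close to the microRNA gene *Mir615*. Every BRG1 value was above every called PBRM1 value in 5 of the 7 Hox genes called in all 3 BRG1 lists, beside 73.7% of all genes called in all 3, so the share was close to that of other genes.

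*Hoxa3* and *Hoxc13* were called in all 6 lists through more than 1 peak. *Hoxa3* had 1.16, 1.16 and 1.17 ppm in the PBRM1 replicates and 1.76, 0.84 and 1.8 in the BRG1 replicates, so that the groups overlapped through BRG1 replicate 2. In BRG1 replicate 2 the peak lay 441 bp upstream of the 3′ start of *Hoxa3*, and in the other 5 lists the highest peak lay near the distal starts of the gene, between *Hoxa6* and *Hoxa7*. *Hoxc13*, a gene of hair and nail development, had 0.707, 1.21 and 0.792 in the PBRM1 replicates and 1.2, 1.19 and 0.865 in the BRG1 replicates, with overlapping groups. Its peak lay 196 to 457 bp upstream of the start in 5 lists, and in PBRM1 replicate 1 it was a different peak, 1050 bp downstream. Without PBRM1 replicate 3 the genes called in all remaining lists rose from 2 to 4, and within 1 kb of a start there was none. The RefSeq promoters of *Hoxa3* and *Hoxd9*, the strongest genes of their clusters, are shown in the same format, with 20 CpG each. The summit of the pooled BRG1 list lay 202 bp upstream of the *Hoxa3* start shown, which is the distal one, and 30 bp downstream of the *Hoxd9* start.
Hoxa3 (chr6:52213018-52213317, minus strand): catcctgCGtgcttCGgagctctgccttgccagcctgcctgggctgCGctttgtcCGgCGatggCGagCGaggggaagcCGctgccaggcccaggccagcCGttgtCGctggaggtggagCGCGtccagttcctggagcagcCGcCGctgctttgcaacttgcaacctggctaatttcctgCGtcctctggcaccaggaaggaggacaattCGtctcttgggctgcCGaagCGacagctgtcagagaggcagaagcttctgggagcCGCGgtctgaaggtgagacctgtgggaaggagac
Hoxd9 (chr2:74697513-74697812, plus strand): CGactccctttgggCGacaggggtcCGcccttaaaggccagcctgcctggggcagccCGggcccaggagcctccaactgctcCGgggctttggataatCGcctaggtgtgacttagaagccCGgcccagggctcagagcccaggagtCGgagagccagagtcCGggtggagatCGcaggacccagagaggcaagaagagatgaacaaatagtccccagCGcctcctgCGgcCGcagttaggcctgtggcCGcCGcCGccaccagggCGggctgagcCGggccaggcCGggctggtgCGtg

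To compare the antibodies at promoters, a linear model (limma) was fitted to log2 ppm over the 9092 protein-coding genes called in all 6 lists. At an adjusted p under 0.05 (Benjamini-Hochberg), 75.2% of these genes were higher for BRG1 and 0.088% for PBRM1, with a median log2 difference, PBRM1 minus BRG1, of -0.59. After centring each library on its median, 0.275% were higher for BRG1 and 0.44% for PBRM1, so most calls depended on the scaling between antibodies. *Hoxa3* had a log2 difference of -0.25 ± 0.22 (SE, n = 3 and 3, adjusted p = 0.288, limma) and *Hoxc13* of -0.29 ± 0.23 (adjusted p = 0.239, limma), and neither passed the threshold. Relative to the median over all genes the differences were 0.34 and 0.31. For *Hoxa3* the result turned on BRG1 replicate 2, without which the difference was -0.61 (adjusted p = 0.0169, limma) but only 0.0073 from the median over all genes. Without BRG1 replicate 1 or 3 it was -0.08 and -0.07. For *Hoxc13* it ran from -0.13 without PBRM1 replicate 1 to -0.52 without PBRM1 replicate 2 (adjusted p = 0.633 and 0.0555, limma). In the pooled lists, 22 Hox genes were called for both antibodies, with a median log2 difference of -0.45 and 20 of 22 below 0, beside -0.61 over 13920 genes, of which 96.8% were below 0.

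Called Hox promoters were weaker than called promoters in general. The median over called Hox genes was 0.909, 0.938 and 0.959 ppm in the PBRM1 replicates, beside 1.26, 1.27 and 1.04 over all called genes. In the BRG1 replicates it was 1.29, 1.19 and 1.2, beside 1.7, 1.68 and 1.73. The Hox median was lower in all 6 libraries and stood above only 21.2% to 37.8% of all called genes. Peaks at Hox promoters were also shorter, with median lengths of 246 to 344 bp beside 414 to 470 bp, and less enriched over their local background, with median fold enrichments of 3.34 to 3.76 beside 4.24 to 5.1. The local background that these values imply was 0.211 to 0.327 ppm at Hox peaks beside 0.195 to 0.251 at promoter peaks in general.

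Hox promoters were CpG-rich, as a group, but were called less often than other CpG-rich promoters. In 300 bases at the annotated gene start (250 before to 50 after), read from GRCm38.p6, the median ratio of observed to expected CpG was 0.745 over the 39 Hox genes and 0.524 over 21931 protein-coding genes. Of all genes with a ratio of at least 0.6, 67.6% were called in all 6 lists and 6.39% in none. Of the 26 Hox genes in that class, 2 were called in all 6 lists (7.69%) and 9 in none (34.6%). They had a median of 18 CpG and 57.8% GC, beside 24 and 63.3% over all genes of the class, so the sets are not matched. CpG was read at the gene start alone, whereas calls used any annotated start. In the class under 0.6, 20.6% of all genes were called in all 6 lists, and 0 of 13 Hox genes.

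The 15 Hox genes with no peak in any replicate list were *Hoxa2*, *Hoxa5*, *Hoxa6*, *Hoxa13*, *Hoxb1*, *Hoxb2*, *Hoxb4*, *Hoxb5*, *Hoxb8*, *Hoxc4*, *Hoxc6*, *Hoxc8*, *Hoxc10*, *Hoxc11* and *Hoxd8*. They include the hindbrain genes *Hoxa2*, *Hoxb1* and *Hoxb2* and the kidney and limb gene *Hoxc11*. Of these, 9 were called in a pooled list, with the highest values in the pooled BRG1 list at 1.24 for *Hoxc4*, 1.02 for *Hoxd8* and 0.929 for *Hoxc6*. Only *Hoxa2*, *Hoxa6*, *Hoxb5*, *Hoxb8*, *Hoxc8* and *Hoxc10* were called in no list of the 8 (15.4%, beside 30.3% of all genes). The remaining members not yet given were called in 1 to 4 replicate lists. Of these, *Hoxa7* reached the highest single value of any Hox gene, 2.39 in BRG1 replicate 1, with 1.36 and 1.08 in PBRM1 replicates 1 and 3 and no peak in the other lists. *Hoxa4* had 4 lists at 0.75 to 1.07 and *Hoxd11* 3 lists at 0.707 to 1.4. *Hoxb3*, *Hoxb6*, *Hoxc9*, *Hoxc12*, *Hoxd3* and *Hoxd4* were called in 2 lists, where *Hoxd3* and *Hoxd4* shared the same peaks, and *Hoxb13*, *Hoxd10*, *Hoxd12* and *Hoxd13* in 1.

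The clusters did not keep an order across libraries. The mean signal per gene, with uncalled genes at 0, was divided by the mean of the 39 genes. Over the 6 libraries it was 1.31 for HoxA, 1.12 for HoxD, 0.774 for HoxB and 0.752 for HoxC. The SDs between libraries of the same antibody, pooled over PBRM1 and BRG1, were 0.322, 0.542, 0.475 and 0.201. HoxA was the highest in 3 libraries and HoxD in 3, while HoxC was the lowest in 3, HoxB in 2 and HoxD in 1. The HoxD value ran from 0.503 in PBRM1 replicate 3 to 1.86 in PBRM1 replicate 1, where 6 of its 9 genes were called, and in PBRM1 replicate 3 only *Hoxd9* was. In the pooled BRG1 list all 9 HoxD genes were called, beside 8 of 11 for HoxA, 7 of 10 for HoxB and 6 of 9 for HoxC.

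Position along the clusters was not followed by the signal. Spearman's rho over the 39 genes between paralogue number and ppm, with uncalled genes at 0, was -0.04, 0.09 and -0.05 in the PBRM1 replicates and -0.08, 0.13 and -0.21 in the BRG1 replicates. The sign differed between replicates of each antibody. In BRG1 replicate 3 the mean was 0.89 for paralogues 1 to 3, 0.257 for paralogues 4 to 8 and 0.424 for paralogues 9 to 13, whereas in BRG1 replicate 2 it was 0.236, 0.331 and 0.591. Genes of 1 cluster share neighbours and library depth, so these values are a description across genes.

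**Figure D3:**
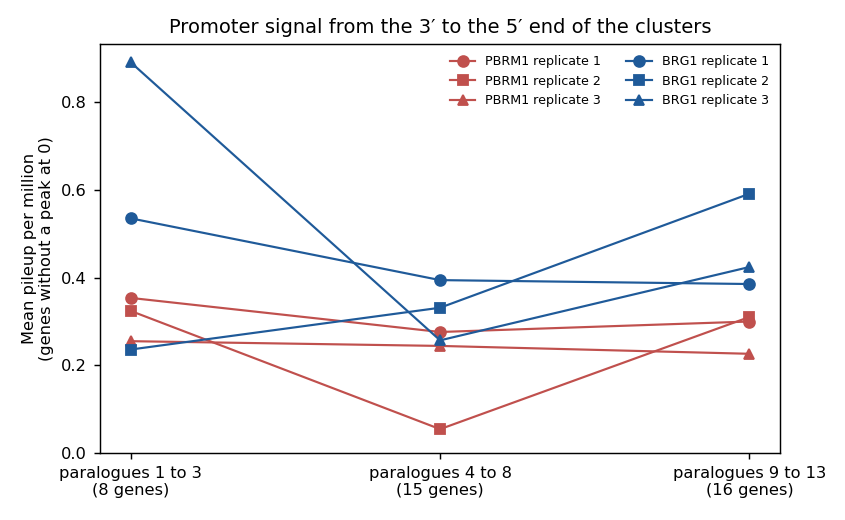
Mean promoter ppm in 3 groups of paralogues, from 3′ to 5′, with genes without a peak at 0 and 1 line per library (red, PBRM1; blue, BRG1). The lines cross, and from paralogues 1 to 3 to paralogues 4 to 8 BRG1 replicate 2 goes up from 0.236 to 0.331 and BRG1 replicate 3 down from 0.89 to 0.257.

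Summed over the 4 clusters, peaks were denser inside than beside them, though not in each cluster. The cluster bodies, from the lowest to the highest coordinate of their Hox genes, were chr6:52155590-52260880 (HoxA), chr11:96194316-96368256 (HoxB), chr15:102921103-103036852 (HoxC) and chr2:74668310-74765142 (HoxD) on GRCm38. Over the 4 bodies the PBRM1 replicates had 22, 15 and 16 peaks (4.47, 3.05 and 3.25 per 100 kb) and the BRG1 replicates 22, 21 and 22 (4.47, 4.27 and 4.47 per 100 kb). The 50 kb on either side had 0.5, 1.5 and 1.75 per 100 kb for PBRM1 and 1.75, 2.25 and 2.25 for BRG1, and the whole genome 1.17 to 1.45. The body density was the highest of the 3 in all 6 libraries. The body was denser than its flanks in 6 of 6 libraries for HoxA and for HoxD, in 4 for HoxC and in 3 for HoxB. The HoxB and HoxC bodies begin at the *Hoxb13* and *Hoxc13* starts, so promoter peaks just upstream of them were counted as flank. That was the case for *Hoxc13* in 5 lists and for *Hoxb13* in BRG1 replicate 3. For HoxB the flanks were denser in PBRM1 replicate 3 and BRG1 replicates 2 and 3, at 3, 3 and 4 per 100 kb beside 2.87, 2.3 and 3.45 in the body. For HoxC they were denser in PBRM1 replicates 2 and 3, at 1 and 3 beside 0 and 1.73. The *Hoxc13* promoter peak was the only HoxC flank peak in PBRM1 replicate 2 and 1 of 3 in PBRM1 replicate 3. With bodies extended by 2 kb, a setting chosen after seeing the data, the 4 bodies had 3.15 to 4.73 peaks per 100 kb. The flanks then had 0.5 to 2. By cluster the lowest body density was 0 peaks in HoxC in PBRM1 replicate 2, whose 1 HoxC promoter peak, at *Hoxc13*, lay in the flank. The highest was 9.29 per 100 kb in HoxD in PBRM1 replicate 1, where the flanks of HoxD had no peak. With peaks of a −log10 q of at least 5 only, the body was denser in 5 of 6 libraries, and PBRM1 replicate 2 had 0.203 per 100 kb in the bodies and 0.75 in the flanks. The part of gene density in this difference was not tested.

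**Figure D4:**
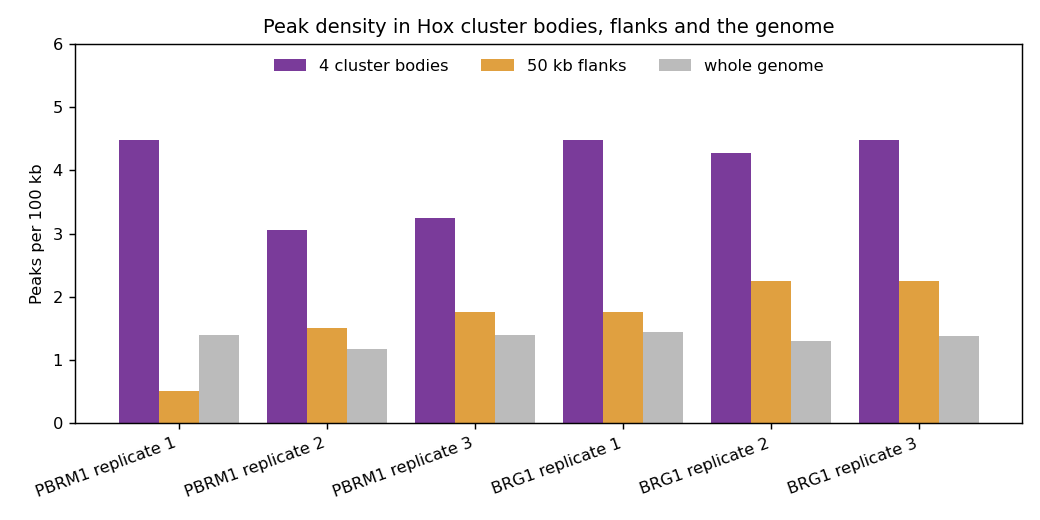
Peaks per 100 kb in the 4 Hox cluster bodies (purple), their 50 kb flanks (orange) and the whole genome (grey) in each library. The purple bars, at 3.05 to 4.47, are the tallest in all 6 libraries.

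When overlapping peaks of the 6 lists were merged, the bodies held 57 regions, of which 35 lay within 2 kb of a Hox start. Of the 57, 22 had peaks of both antibodies (38.6%, beside 42.9% of all 82959 merged regions), 16 of PBRM1 alone (28.1%, beside 26.7%) and 19 of BRG1 alone (33.3%, beside 30.4%), and 27 were found in a single list (47.4%, beside 47%). These shares were close to those over all regions. Only 2 were found in all 6 lists (3.51%, beside 15.5%), and neither lay at a Hox start. The first, chr11:96260188-96260883 in HoxB, lay 10813 bp from the nearest *Hoxb9* start and 966 bp from a start of *Gm53*, a lincRNA gene, in the interval between *Hoxb13* and *Hoxb9*. Its ppm was 1.57, 1.43 and 1.38 for PBRM1 and 1.51, 1.4 and 1.93 for BRG1, so that the groups overlapped. The second, chr2:74749298-74750011 in HoxD, lay between *Hoxd3* and *Hoxd1*, 812 bp from a start of the long noncoding RNA gene *Haglr* and inside that gene, with 0.859, 0.938 and 0.709 for PBRM1 and 1.07, 1.19 and 1.06 for BRG1. In the fit over the 12830 regions found in all 6 lists, of which 52.9% were higher for BRG1 and 0.413% for PBRM1 (2.45% and 2.24% after centring), the log2 difference was -0.13 ± 0.20 (SE, adjusted p = 0.572, limma) for the *Gm53* region and -0.42 ± 0.22 (adjusted p = 0.1035, limma) for the *Haglr* region. The latter missed the threshold although its 3 BRG1 values were above its 3 PBRM1 values.

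The 300 bases around the strongest summit of these regions are shown as the most recurrent sites inside the Hox clusters, on the plus strand of GRCm38.p6 with CpG in capitals. They hold 9 CpG at the *Gm53* region and 20 at the *Haglr* region.
Gm53 region (chr11:96260494-96260793): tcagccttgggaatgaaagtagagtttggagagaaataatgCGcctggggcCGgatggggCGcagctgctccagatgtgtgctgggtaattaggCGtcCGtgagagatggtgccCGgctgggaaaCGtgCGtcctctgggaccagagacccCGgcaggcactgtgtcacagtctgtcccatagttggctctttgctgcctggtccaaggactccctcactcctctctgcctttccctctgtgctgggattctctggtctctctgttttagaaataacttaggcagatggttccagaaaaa
Haglr region (chr2:74749544-74749843): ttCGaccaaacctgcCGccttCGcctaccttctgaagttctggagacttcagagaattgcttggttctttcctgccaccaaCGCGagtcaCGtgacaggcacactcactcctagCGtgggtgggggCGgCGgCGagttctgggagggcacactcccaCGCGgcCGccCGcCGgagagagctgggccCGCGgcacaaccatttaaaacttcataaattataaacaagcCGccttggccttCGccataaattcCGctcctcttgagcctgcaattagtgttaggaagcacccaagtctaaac

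**Figure D5:**
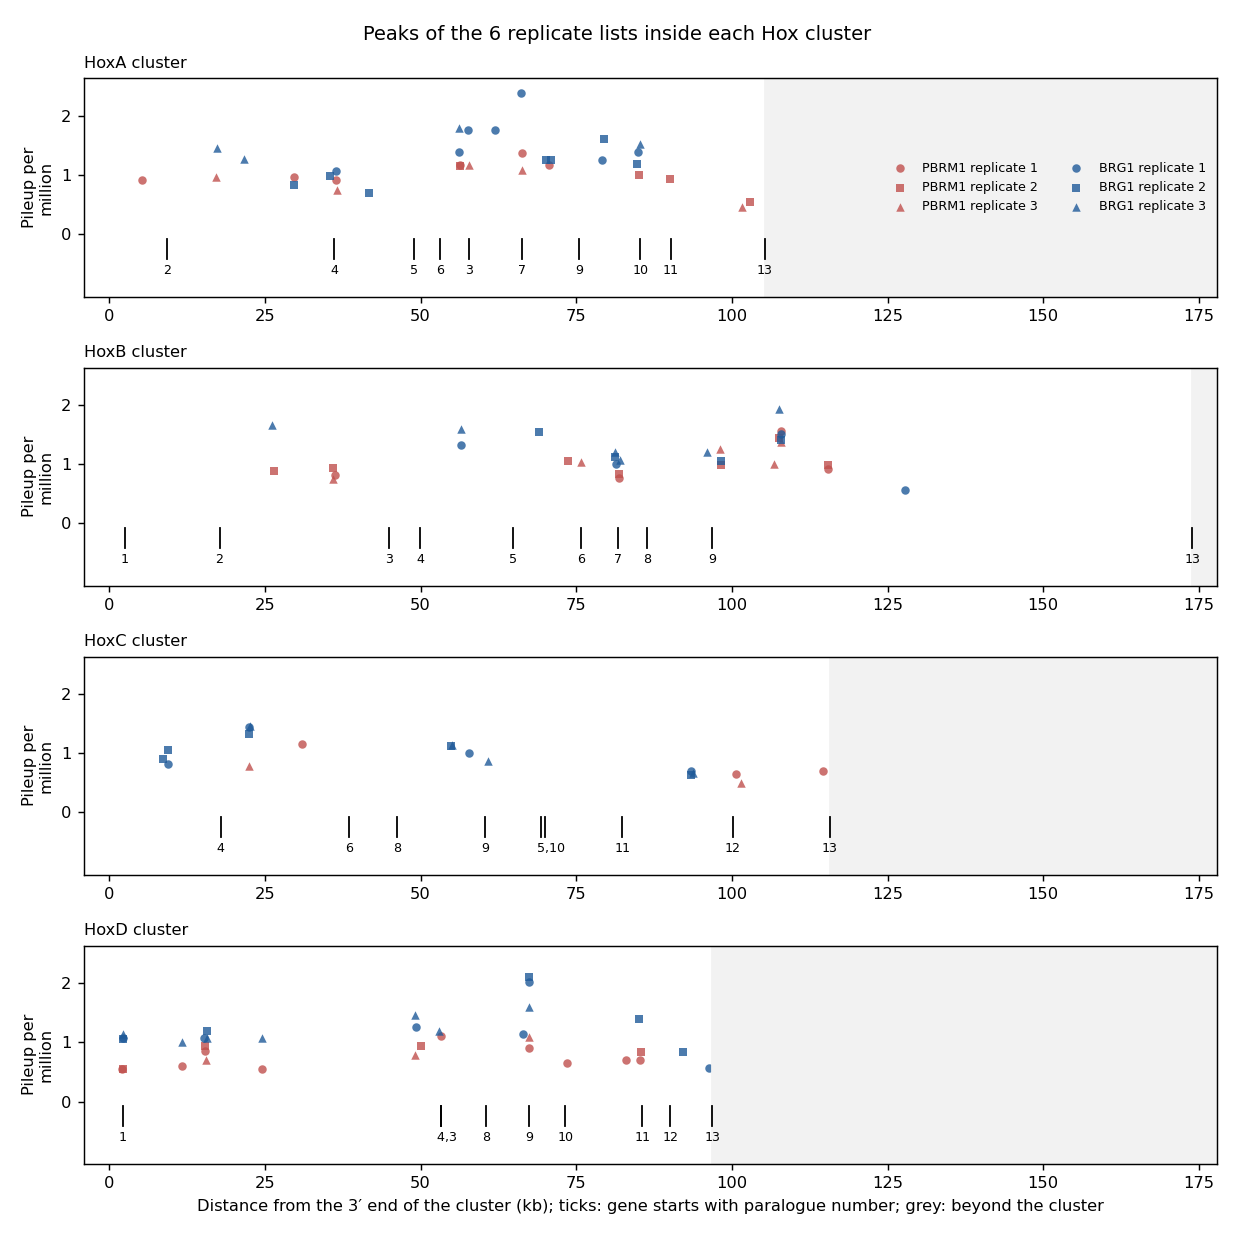
Peaks of the 6 replicate lists (red, PBRM1; blue, BRG1; symbol, replicate) by distance from the 3′ end of each cluster in kb and ppm, with gene starts as numbered ticks. Only genes reported by name are marked, and peaks at the starts of other Hox genes are not drawn. Peaks upstream of the *Hoxc13* and *Hoxb13* starts lie outside the bodies and are not drawn either. Symbols of all 6 libraries stack between *Hoxb13* and *Hoxb9* in HoxB, at 1.38 to 1.93, and between *Hoxd3* and *Hoxd1* in HoxD.

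A single body region was found in all 3 PBRM1 lists and no BRG1 list (1.75%, beside 1.22% of all regions). It lay at chr11:96331805-96332378, 4180 bp from a *Hoxb3* start, with 0.808, 0.938 and 0.75, and the pooled BRG1 list had a peak over it at 0.73. In the opposite direction there were 2 regions (3.51%, beside 0.916%), downstream of the *Hoxb7* start at 1.01, 1.12 and 1.2, and in HoxC at chr15:102942954-102943582 at 0.692, 0.63 and 0.665, 1915 bp from the noncoding gene *Gm27337*. The pooled PBRM1 list had a peak over the HoxC region at 0.436. At *Hoxb7* its peak of 0.84 only touched the edge of the region, with its summit 220 bp upstream of the start. In the flanks 2 of 18 regions were found in all 6 lists (11.1%, beside 15.5% of all regions). One lay 7409 bp from *Evx1*, a homeobox gene next to *Hoxa13*, at 0.459 to 0.556 for PBRM1 and 0.566 to 0.91 for BRG1. The other, 47602 bp from the nearest *Hoxb1* start, had 1.38 to 1.57 and 1.2 to 1.7.

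Of 43 noncoding genes with a start inside a body, *Gm53* and *Haglr* were called in all 6 lists and 19 in none (beside 6.38% and 81.2% of 33475 noncoding genes in the genome). Neighbouring starts can share a peak, as *Hoxa11os*, *Gm28032*, *Gm27492*, *Gm27695* and *Gm27817* did at 0.938 in PBRM1 replicate 2. The genes called are therefore not separate sites. The opposite-strand gene *Hoxd3os1* and *Gm28793*, which starts beside *Hoxd9*, were called in 5 lists. No peak was called in a replicate list at *Hotair*, the lincRNA of HoxC, or at the microRNA genes *Mir10a*, *Mir10b*, *Mir196a-1*, *Mir196a-2* and *Mir196b*. *Mir615* was called in 4 lists through the peak given for *Hoxc5*.

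Sequence motifs at summits in the bodies were counted in 300 bases around each pooled summit on either strand. The CTCF core was in 3 of 62 PBRM1 windows (4.84%, beside 3.69% of all PBRM1 summits) and 3 of 73 BRG1 windows (4.11%, beside 3.77%). The PBX-HOX composite (TGATNNAT), bound by HOX proteins with their PBX partners, was in 9.68% and 11%, beside 12.6% and 10.3%. The CArG box, CC and GG around 6 bases of A or T and the site of the muscle factor SRF, was in 1 window of either list (1.61% and 1.37%, beside 1.93% and 1.66%). GAGAGAG was in 17.7% and 13.7%, beside 9.89% and 10.2%. The Hox windows had a median of 14 and 17 CpG, beside 4 for all summits of either list. At the 39 gene starts, TGATNNAT was found in 8 windows (20.5%, beside 7.26% of all gene starts), GAGAGAG in 8 (20.5%, beside 10.1%), the CTCF core in 1 (2.56%, beside 2.54%) and the CArG box in none (beside 1.48%).

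Genes that act with or on Hox genes were counted in the same way, to be read beside the 41.4% of all genes called in all 6 lists, the 34.9% called in none and the 75.2% of fitted genes higher for BRG1. Of 9 HOX cofactors, 5 were called in all 6 lists and none in 0 lists. Of these, *Pbx3*, *Pbx4* and *Pknox1* were higher for BRG1 (log2 differences -0.56, -0.42 and -0.61, adjusted p = 0.00939, 0.044 and 0.0026, limma). Of 24 trithorax and Polycomb genes, 15 were called in all 6 lists and none in 0, and 13 of the 15 were higher for BRG1, among them *Kmt2a* (-0.93, adjusted p = 9.15e-05, limma), the founding trithorax methyltransferase, and *Suz12* (-1.07, adjusted p = 2.28e-05, limma), a subunit of Polycomb repressive complex 2. After centring, no gene of these lists or of the next 2 passed the threshold in either direction. Of 11 upstream inducers, the retinoic acid receptors *Rara* and *Rarg* were called in all 6 lists and both were higher for BRG1 (log2 differences -0.63 and -0.59, adjusted p = 0.00267 and 0.00673, limma), while *Cdx1*, *Cdx2*, *Cdx4*, *Cyp26a1* and *Wnt7a* were called in none. Among 12 ParaHox genes and neighbours of the clusters, *Skap2*, *Hibadh*, *Mtx2*, *Lnpk* and *Cbx5*, none of them a homeobox gene, were called in all 6 lists, and *Hibadh*, *Mtx2* and *Lnpk* were higher for BRG1, whereas *Evx1*, *Evx2*, *Gsx2*, *Pdx1* and *Skap1* were called in none.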

How the data were processed

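ChIC-seq peak lists of 3 PBRM1 and 3 BRG1 libraries and 1 pooled list per antibody were used. Per the labels, reads were processed with cutadapt, Bowtie2 and MACS2 on GRCm38.p5. Per the file headers, the authors called peaks with MACS 2.2.7.1 on paired-end fragments, keeping duplicates, at a q cutoff of 0.05, with no control and a local background over 10 kb, so sites cut regardless of antibody could be called too. The deposited pileup is the signal, or fragment coverage, at a summit. The deposited fold enrichment is its ratio to the local background, and q-values were deposited as −log10 q. Filters on mapping quality are not given in the sources used here.

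Pileups were divided by the fragments in each header and given per 1000000 (ppm). Starts came from GENCODE M21 and sequence from GRCm38.p6. Of 39 Hox genes, 22 matched a RefSeq promoter. Peaks were merged at an overlap of at least 1 bp. Promoter and region signals called in all 6 lists were compared with limma 3.58.1 (R 4.3.3, trend, two-sided, Benjamini-Hochberg over all features), without a replicate block, after a test on simulated data. Scripts ran in Python 3.11.15. Same-numbered libraries of the antibodies did not deviate together (correlations -0.01, 0.02 and -0.01 over promoters), so numbers were not taken as pairs. Genes described in full were *Hoxa9*, *Hoxa10*, *Hoxa11*, *Hoxa13*, the 2 strongest of each cluster, those called in no replicate list and any past the threshold, and all others were given by counts and ranges. *Hoxa7* and the regions outside promoters were named after their values were seen. A few items that enter the counts are not reported by name here. The rule for the members uses no measured value, but it and the lists and tests were chosen with earlier results of these data known.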

Additional observations from a re-analysis of the deposited data

How the results depend on the processing

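The counts of recurrent Hox calls are small and move with the settings. Within 1 kb of a start, with −log10 q of at least 5, or with equal numbers of peaks (the 31970 strongest of each list), 0 Hox genes were called in all 6 lists. Within 5 kb there were 4, and at the gene start alone 1. Leaving out each library in turn gave 2 to 4, with 4 only without PBRM1 replicate 3. The share over all genes was 27% to 45.5% under these settings. For all 3 PBRM1 lists the number ran from 0 to 7, and for all 3 BRG1 lists from 2 to 12.

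Promoters higher for BRG1 numbered 6837, and 1480 by fold enrichment, 3420 by summed pileups, 25 after centring and 42 after centring with the replicate block. Those higher for PBRM1 numbered 8, and 18 by fold enrichment, 40 after centring, 65 after centring with the block and 5 at the stricter q. Merged regions higher for BRG1 numbered 6793, and 1371 by fold enrichment, 3201 where each library covered 50% of the region, 314 after centring and 360 with the block as well. Those higher for PBRM1 numbered 53, and 28, 11, 288 and 322 in the same order and 12 at the stricter q, with 33 to 77 when libraries were left out. The block alone gave 6631 and 7 promoters and 6589 and 50 regions and changed no call of a Hox gene. Combining centring with the block, the HoxB interval without *Hoxb13* and bodies extended by 2 kb were chosen after seeing the data.

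After centring, the log2 difference turned from negative to positive for *Hoxa3* (0.36), *Hoxc13* (0.33), the *Gm53* region (0.33) and the *Haglr* region (0.0505), none past the threshold. By fold enrichment it was 0.0155 and 0.077 for these regions, and without each library it ran from -0.23 to 0.0027 for the *Gm53* region, the latter without BRG1 replicate 3. Only *Hoxa3* gained a call, without BRG1 replicate 2. *Hoxd1* without PBRM1 replicate 3, *Hoxd9* without PBRM1 replicate 2 and *Hoxd3* within 5 kb entered the fit and were higher for BRG1 (adjusted p = 0.00195, 0.000645 and 0.0436, limma). After centring, *Hoxd1* and *Hoxd9* were not past the threshold (-0.45 and -0.30, adjusted p = 0.434 and 0.612). *Hoxb7* entered without PBRM1 replicate 3 and within 5 kb and did not pass it (adjusted p = 0.0645 and 0.135). The median Hox difference relative to all genes was 0.33 over 2 genes and ran from 0.11 to 0.45 without each library. It could not be computed within 1 kb, at the stricter q or with equal numbers of peaks, where no Hox gene was left. The HoxC mean relative to the 39 genes went from 0.752 to 1.01 at the stricter q and 0.545 at the gene start alone, and the body minus flank density from 2.33 to 0.584 at the stricter q. The cause of these shifts was not tested. The other alternatives left results within their limits. For the cluster, position and density values the limit was the SD between libraries of the same antibody, which can be wide. The HoxB mean of 0.774 went as low as 0.452 and still lay within its SD of 0.475. Depth of 14284532 to 23992352 fragments per library limits calls of weak peaks, and an uncalled promoter gives no level.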
